A study of Mus musculus with 9 samples.

Results

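The 39 genes described here encode enzymes of glycerolipid and phospholipid synthesis, together with 4 long-chain acyl-CoA synthetases. They were chosen by a rule on symbols, with earlier results of these data known, and are 39 of the 54432 genes in the table. The comparisons with all genes below may therefore not be independent of these data. Of the 39 genes, 38 passed the filter of more than 10 counts in at least 3 libraries and were tested among 12637 genes. *Lpin3* did not pass, with at most 1 count in any library. RNAseq was performed on RAW 264.7 cells, a mouse macrophage line, in 3 untreated control libraries (CTRL), 3 libraries of cells given VLDL-sized emulsion particles (VLDLsep) and 3 of cells given chylomicron-sized emulsion particles (CHYLsep). The methods give both particles at 1 mM for 6 hours. A supplementary legend for a heatmap of these RNAseq data gives a lower dose for the chylomicron-sized particles, and the sources do not settle which holds. According to the methods, both particles were made from sunflower oil with sodium caseinate as emulsifier, so they are artificial emulsions and not lipoproteins. The labels give the controls as untreated and name no vehicle. All groups share 1 unmodified cell line grown with fetal serum, and the methods state that samples were pooled by condition within an experiment, so that a library is 1 pool.

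Cells build triglycerides and most phospholipids on a glycerol-3-phosphate backbone. Acyl-CoA synthetases first activate fatty acids by joining them to coenzyme A. GPAT and AGPAT enzymes attach acyl chains to give phosphatidic acid, which lipins dephosphorylate to diacylglycerol for triglycerides, phosphatidylcholine and phosphatidylethanolamine, or which CDS enzymes turn into CDP-diacylglycerol for phosphatidylinositol, phosphatidylglycerol and cardiolipin. Lysophospholipid acyltransferases then exchange acyl chains of finished phospholipids (the Lands cycle). In macrophages that take up triglyceride-rich particles, these enzymes can use the fatty acids that lysosomes release.

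The totals of the estimated counts were nearly equal, from 22393893 to 22856792 per library, so that 10 counts amounted to a median of 0.442 cpm (counts scaled to library size). Levels below are cpm after trimmed mean of M-values (TMM) normalization, and folds are on the log2 scale. All 8 macrophage markers listed were expressed in every library, from 16.1 cpm (*Adgre1*) to 2492 cpm (*Lyz2*). Among the markers of other cell types given here, *Epcam*, *Krt18* and *Adipoq* were at 0 in every library, *Cd3e*, *Cd3d*, *Ms4a1* and *Col1a1* reached at most 0.182 cpm, *Pdgfra* lay between 1.33 and 2.43 cpm and *Fabp4*, which macrophages can also express, between 6.07 and 14.6 cpm. The libraries with replicate number 3 stood apart in each group: the median absolute log2 difference over the members was 0.0608 to 0.0737 between replicates 1 and 2 and 0.108 to 0.152 between either of them and replicate 3. In bulk RNA, fewer cells and less RNA per cell cannot be told apart.

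In the VLDLsep libraries *Lpin1* and *Acsl3* fell and *Cds2* rose, each by more than 1 on the log2 scale, and the same 3 of the 38 members tested passed that limit in the CHYLsep libraries. Of all genes, 5.49% after VLDL-sized and 3.78% after CHYL-sized particles changed by more than 1 in either direction. After VLDL-sized particles, 20 of the 38 members tested passed at an adjusted p under 0.05 (52.6%; limma-voom, Benjamini-Hochberg adjustment over all genes tested), 9 higher and 11 lower, compared with 35.6% of all genes, 17.8% higher and 17.9% lower. After CHYL-sized particles 12 members passed (31.6%), 3 higher and 9 lower, compared with 25.7% of all genes, 12.7% higher and 13% lower. The median log2 fold change of the members was 0.02 after VLDL-sized and -0.00335 after CHYL-sized particles, compared with -0.000282 and 0.00133 for all genes. Scaling by library size alone moved the median of all genes to -0.0935 and -0.0788, and the split of the members to 5 higher and 14 lower after VLDL-sized particles (11.9% and 26.2% of all genes) and 1 higher and 13 lower after CHYL-sized particles (8.45% and 19.9% of all genes). Passing in both comparisons were 11 members, compared with 24.3% of all genes, and each moved the same way in both: *Acsl3*, *Agpat2*, *Lpin1*, *Pcyt2*, *Lpcat1*, *Lpcat3*, *Lpcat4* and *Cds1* fell, and *Cds2*, *Crls1* and *Cept1* rose. These comparisons share their control libraries. With the replicate number as a block, 26 members passed in the VLDLsep comparison (13 higher, 13 lower), compared with 47.9% of all genes, and 23 in the CHYLsep comparison (10 higher, 13 lower), compared with 39.2% of all genes, although pairing by number is uncertain for the former and not shown for the latter. The libraries of the treated and control groups did not overlap for 24 members after VLDL-sized particles and 18 after CHYL-sized particles, compared with 47.4% and 41.7% of all genes.

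**Figure D1:**
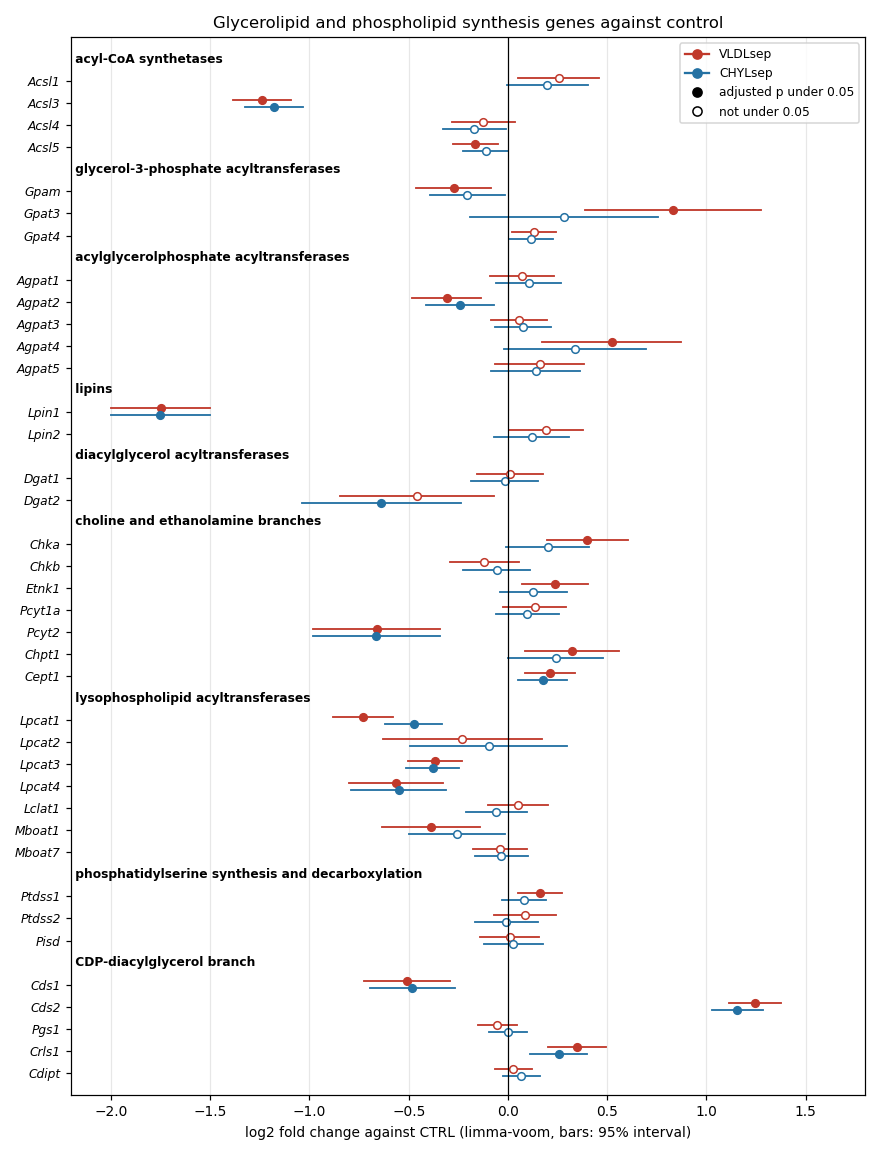
Log2 fold change against control of the 38 tested members by role (horizontal axis, log2), with red for VLDLsep and blue for CHYLsep, bars for 95% intervals and filled circles for an adjusted p under 0.05. *Lpin1* lies farthest left at -1.75 in both comparisons, and *Cds2* farthest right at 1.24 and 1.16.

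The promoter windows of the 3 members with the largest changes are shown, so that their sequences can be compared, with both annotated starts of *Cds2*. RefSeq windows of the 250 bases before an annotated gene start (GRCm38.p6) were found for 32 of the 39 members, 45 windows in all, since some genes have several starts. Capitals mark CCAAT, or ATTGG where it lies on the other strand, the letters of the CCAAT box that nuclear factor Y binds.
Acsl3, chr1:78657575-78657824, plus strand: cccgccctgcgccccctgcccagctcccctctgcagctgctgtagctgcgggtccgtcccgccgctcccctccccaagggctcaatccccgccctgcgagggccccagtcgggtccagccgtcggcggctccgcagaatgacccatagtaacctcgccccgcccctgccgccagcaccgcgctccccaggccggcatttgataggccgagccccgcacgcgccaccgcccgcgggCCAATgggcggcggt
Cds2, chr2:132262898-132263147, plus strand: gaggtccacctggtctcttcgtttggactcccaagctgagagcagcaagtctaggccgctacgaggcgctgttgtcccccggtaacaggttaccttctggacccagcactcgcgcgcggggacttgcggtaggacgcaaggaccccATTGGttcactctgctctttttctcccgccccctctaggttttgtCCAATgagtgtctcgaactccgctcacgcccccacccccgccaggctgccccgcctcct
Cds2, chr2:132285689-132285938, plus strand: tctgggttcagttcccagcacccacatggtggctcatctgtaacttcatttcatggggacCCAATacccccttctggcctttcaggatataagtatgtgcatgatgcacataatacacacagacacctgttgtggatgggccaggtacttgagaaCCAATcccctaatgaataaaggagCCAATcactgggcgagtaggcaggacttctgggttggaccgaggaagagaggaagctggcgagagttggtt
Lpin1, chr12:16610967-16611216, minus strand: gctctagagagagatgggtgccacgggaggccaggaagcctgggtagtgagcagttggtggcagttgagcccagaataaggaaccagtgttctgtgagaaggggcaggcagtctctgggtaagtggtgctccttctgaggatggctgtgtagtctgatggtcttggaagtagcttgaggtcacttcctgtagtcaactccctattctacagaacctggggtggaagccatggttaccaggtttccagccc
The *Acsl3* window holds 1 CCAAT box, 15 bases before the start, the first *Cds2* window holds 2, at 104 and 59 bases before the start, and the other *Cds2* window, whose start lies within the gene, holds 3, at 190, 95 and 71 bases before it. The *Lpin1* window holds none of the 5 motifs searched. These were CCAAT, the sterol regulatory element TCACNCCAC, the E-box CACGTG, the antioxidant response element TGACNNNGC and the DR4 element bound by liver X receptors, each on both strands. CCAAT was in 16 of the 45 member windows and in 33.85% of all 32851 windows. TCACNCCAC was in 3 member windows, 1 of *Acsl1* and 2 overlapping ones of *Pcyt1a*, and in 1.05% of all windows, and CACGTG was in 2 and 6.02%. TGACNNNGC was in 8 member windows and 10.2% of all windows, and the DR4 element was in 0 and 0.0152%. A match describes letters and is not a binding site, no match says only that the letters are not in this window, and which start RAW 264.7 cells use was not examined.

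The acyl-CoA synthetases activate long-chain fatty acids. *Acsl3*, which acts at the endoplasmic reticulum and lipid droplets (ENSMUSG00000032883, chr1:78657825-78707743, plus strand), fell to less than its lowest control level in every treated library. It was at 144, 143 and 125 cpm in the control libraries, 55.4, 60.3 and 58.8 cpm in the VLDLsep libraries and 60.3, 63.1 and 58.5 cpm in the CHYLsep libraries, means of 137 ± 10.8, 58.2 ± 2.496 and 60.6 ± 2.35 (SD, n = 3). The log2 fold change was -1.24 (SE 0.07, adjusted p = 5.18e-07) after VLDL-sized and -1.18 (SE 0.07, adjusted p = 9.03e-07) after CHYL-sized particles. Of its exons 5.60% overlap *Utp14b* on the same strand, a gene with a mean of 872 counts compared with 1961 for *Acsl3*. The other synthetases had log2 fold changes nearer to 0. *Acsl5*, which is partly mitochondrial (ENSMUSG00000024981, chr19:55251938-55297720, plus strand), was at 315, 328 and 332 cpm in the control libraries, 276, 288 and 306 cpm in the VLDLsep libraries and 306, 289 and 308 cpm in the CHYLsep libraries, without overlap between either treated group and control. Its log2 fold change was -0.16 (SE 0.05, adjusted p = 0.0289) after VLDL-sized particles, a fall, and -0.11 (SE 0.05, adjusted p = 0.142) after CHYL-sized particles. Of the *Acsl5* exons, 8.31% overlap *Zdhhc6* on the opposite strand, a gene with a mean of 1786 counts compared with 6928 for *Acsl5*. The arachidonate-preferring *Acsl4* had log2 fold changes of -0.12 and -0.17 and *Acsl1*, a target of peroxisome proliferator-activated receptors, 0.26 and 0.20, with adjusted p of 0.208, 0.114, 0.0529 and 0.147. *Acsl1* passed after VLDL-sized particles with the replicate number as a block (adjusted p = 0.00122), and in both comparisons without the libraries numbered 3 (adjusted p = 6.50e-05 and 9.95e-04), and control replicate 3 stood at 122 cpm compared with 96.5 and 96.4 cpm in the other controls. Of the 4 synthetases, 2 passed after VLDL-sized and 1 after CHYL-sized particles, all lower, compared with 17.9% and 13% of all genes lower. Scaled by library size alone 3 passed in each comparison, all lower (26.2% and 19.9% of all genes), and with DESeq2 *Acsl1* also passed after VLDL-sized particles, higher.

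Per kilobase of exon, the control order was *Acsl5* (76.6 cpm per kb), *Acsl4* (51.2), *Acsl3* (34.8) and *Acsl1* (25.2), the same whether the merged exons or the median coding transcript gave the length. In both treated groups *Acsl3* was last under either length, at 14.7 and 15.3 cpm per kb of merged exon. Its share of the summed length-scaled level of the family was 18.6 ± 1.93% in control, 9.20 ± 0.329% in VLDLsep and 9.57 ± 0.733% in CHYLsep (SD, n = 3). The summed level of the family was 188 ± 5.44, 160.1 ± 9.18 and 161 ± 5.95 cpm per kb.

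**Figure D2:**
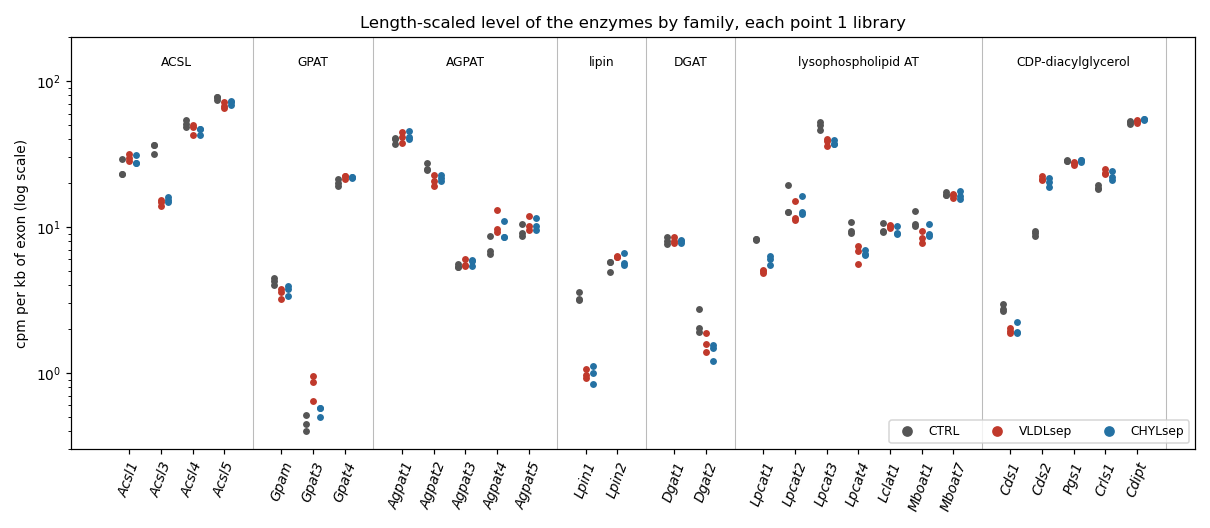
Level of the members of 7 enzyme families in every library (cpm per kb of merged exon, log axis), with grey for CTRL, red for VLDLsep and blue for CHYLsep, and 1 point for each library. *Acsl3* drops from above to below *Acsl1*, *Cds2* moves away from *Cds1*, and *Lpin1* moves away from *Lpin2*.

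The glycerol-3-phosphate acyltransferases catalyse the first acylation of the pathway. *Gpat3*, an isoform of the endoplasmic reticulum (ENSMUSG00000029314, chr5:100845713-100899102, plus strand), was at 1.30, 1.68 and 1.46 cpm in the control libraries, 3.10, 2.11 and 2.82 cpm in the VLDLsep libraries and 1.64, 1.89 and 1.87 cpm in the CHYLsep libraries. Every VLDLsep library lay above every control library, while the CHYLsep libraries overlapped them. It rose with a log2 fold change of 0.83 (SE 0.20, adjusted p = 0.00800) after VLDL-sized particles, compared with 0.28 (SE 0.21, adjusted p = 0.376) after CHYL-sized particles. The difference between the particles was 0.55 with a 95% interval from 0.12 to 0.98 (unadjusted p = 0.0165, adjusted p = 0.665). *Gpat3* had a mean of only 44.7 counts per library, and 30.04% of its exons overlap the antisense gene *4930458D05Rik* on the opposite strand, which had a mean of 0.226 counts. The mitochondrial *Gpam* (ENSMUSG00000024978, chr19:55067268-55127238, minus strand) was at 27.1, 28.6 and 25.4 cpm in the control libraries, 23.8, 22.9 and 20.5 cpm in the VLDLsep libraries and 25.1, 24.0 and 21.3 cpm in the CHYLsep libraries, with both treated groups below control. Its log2 fold change was -0.27 (SE 0.09, adjusted p = 0.0298) and -0.20 (SE 0.08, adjusted p = 0.106). *Gpat4*, another isoform of the endoplasmic reticulum and the highest of the 3 per kilobase (20.2 cpm per kb in control, compared with 4.25 for *Gpam* and 0.453 for *Gpat3*), had log2 fold changes of 0.13 (SE 0.05, adjusted p = 0.0652) and 0.12 (SE 0.05, adjusted p = 0.117). With the replicate block it passed after VLDL-sized particles (adjusted p = 0.0209).

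The acylglycerolphosphate acyltransferases add the other acyl chain to give phosphatidic acid. Of the 5 genes, 1 rose and 1 fell after VLDL-sized particles (17.8% and 17.9% of all genes) and 1 fell after CHYL-sized particles (13% of all genes). *Agpat2*, mutated in a form of lipodystrophy (ENSMUSG00000026922, chr2:26593057-26604417, minus strand), was at 40.9, 37.1 and 36.9 cpm in the control libraries, 34.1, 30.6 and 28.3 cpm in the VLDLsep libraries and 30.7, 34.0 and 32.4 cpm in the CHYLsep libraries. All treated libraries lay below the controls, and its log2 fold change was -0.31 (SE 0.08, adjusted p = 0.0108) and -0.24 (SE 0.08, adjusted p = 0.0426). *Agpat4* (ENSMUSG00000023827, chr17:12118704-12219645, plus strand) was at 12.6, 13.2 and 16.8 cpm in the control libraries, 17.7, 18.6 and 25.1 cpm in the VLDLsep libraries and 16.4, 16.5 and 20.9 cpm in the CHYLsep libraries. In each group replicate 3 was the highest, and only the VLDLsep libraries did not overlap the controls. It rose with a log2 fold change of 0.52 (SE 0.16, adjusted p = 0.0251) after VLDL-sized particles, compared with 0.34 (SE 0.16, adjusted p = 0.154) after CHYL-sized particles. *Agpat1*, *Agpat3* and *Agpat5* had log2 fold changes from 0.06 to 0.16 in both comparisons, the lowest adjusted p being 0.248. *Agpat5* passed after VLDL-sized particles with the replicate block (adjusted p = 0.00846). *Agpat1* and *Agpat2* were the highest of the family per kilobase in control under either length, at 39.3 and 25.7 cpm per kb of merged exon.

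Lipins dephosphorylate phosphatidic acid to diacylglycerol. *Lpin1* (ENSMUSG00000020593, chr12:16535669-16610966, minus strand) had the largest change of all members in both comparisons. Its level was 20.003, 22.1 and 19.5 cpm in the control libraries, 5.70, 6.55 and 6.00 cpm in the VLDLsep libraries and 6.91, 6.21 and 5.19 cpm in the CHYLsep libraries, means of 20.5 ± 1.36, 6.09 ± 0.433 and 6.10 ± 0.860 (SD, n = 3). The highest treated library stood well under the lowest control library. *Lpin1* fell by 1.75 on the log2 scale after VLDL-sized particles (SE 0.11, adjusted p = 1.88e-06) and by 1.75 after CHYL-sized particles (SE 0.11, adjusted p = 2.69e-06). *Lpin2* did not pass, with log2 fold changes of 0.19 (SE 0.08, adjusted p = 0.0987) and 0.12 (SE 0.08, adjusted p = 0.344), and passed after VLDL-sized particles with the replicate block (adjusted p = 0.0250). The *Lpin1* share of the length-scaled lipin level was 37.7 ± 1.66% in control, 13.6 ± 0.942% in VLDLsep and 14.2 ± 0.944% in CHYLsep. The sum of the lipins was 8.79 ± 0.674, 7.23 ± 0.0128 and 6.94 ± 0.700 cpm per kb.

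The diacylglycerol acyltransferases make triglycerides. *Dgat2*, which works with newly made fatty acids at lipid droplets (ENSMUSG00000030747, chr7:99153658-99182719, minus strand), was at 4.33, 4.63 and 6.17 cpm in the control libraries, 3.15, 3.55 and 4.23 cpm in the VLDLsep libraries and 3.497, 3.37 and 2.73 cpm in the CHYLsep libraries. Neither treated group overlapped the controls. It fell by 0.64 on the log2 scale after CHYL-sized particles (SE 0.18, adjusted p = 0.0249), and its log2 fold change after VLDL-sized particles was -0.46 (SE 0.18, adjusted p = 0.0651), which passed with the replicate block (adjusted p = 0.0393). Without the libraries numbered 3, the call after CHYL-sized particles was lost (adjusted p = 0.0902). *Dgat1*, the isoform with broad acyl acceptors, had log2 fold changes of 0.01 and -0.02 with 95% intervals from -0.16 to 0.18 and from -0.18 to 0.15. Per kilobase *Dgat1* was the higher of the pair in control, at 8.06 compared with 2.23 cpm per kb.

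**Figure D3:**
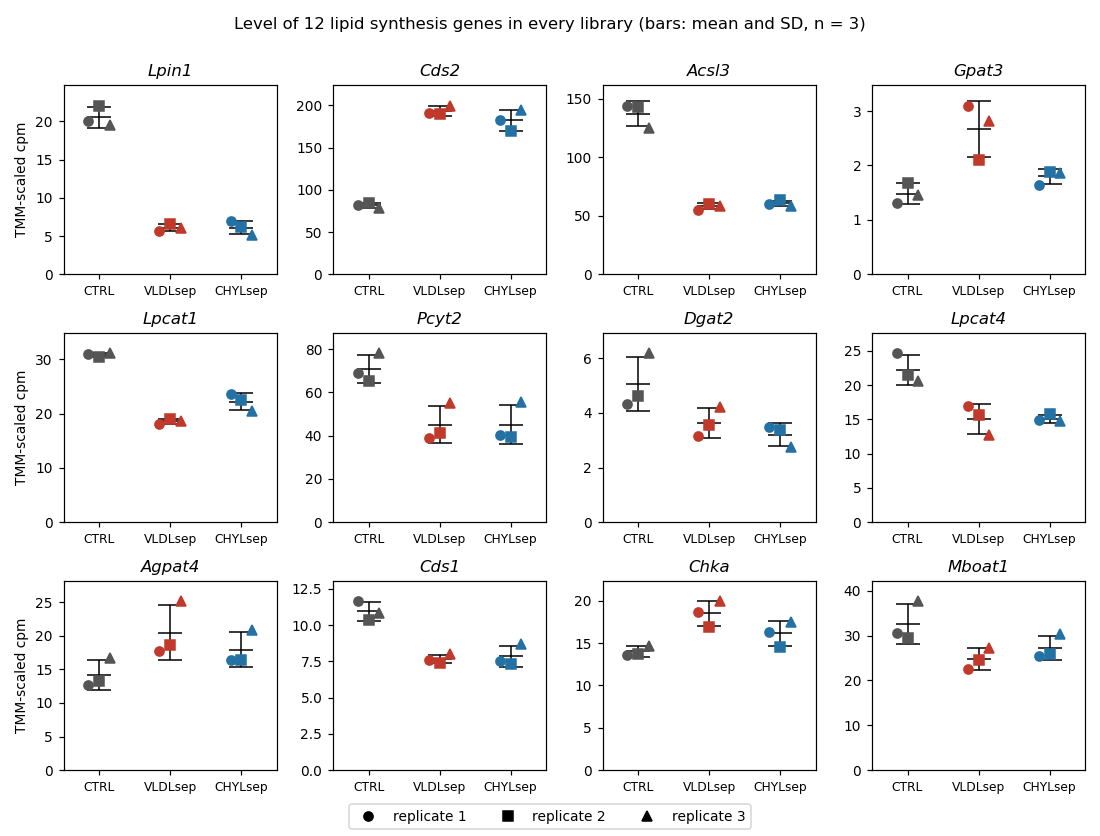
Level (TMM-scaled cpm, axes from 0) of the 12 members with the largest changes in each library, with symbols for the replicate number and bars for the mean and SD of 3 libraries. The treated libraries of *Lpin1* lie between 5.19 and 6.91 cpm, below all controls, and those of *Cds2* lie above all controls.

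In the choline and ethanolamine branches, 4 of 7 genes rose and 1 fell after VLDL-sized particles (17.8% and 17.9% of all genes), and 1 rose and 1 fell after CHYL-sized particles (12.7% and 13% of all genes). The gene that fell was *Pcyt2*, the rate-limiting enzyme of phosphatidylethanolamine synthesis by this route (ENSMUSG00000025137, chr11:120610087-120617936, minus strand). It was at 68.9, 65.4 and 78.0 cpm in the control libraries, 38.9, 41.4 and 55.0 cpm in the VLDLsep libraries and 40.5, 39.4 and 55.5 cpm in the CHYLsep libraries. Replicate 3 was the highest in each group, yet the groups did not overlap, and the log2 fold change was -0.66 (SE 0.14, adjusted p = 0.00482) and -0.66 (SE 0.14, adjusted p = 0.00685). *Pcyt1a*, its counterpart for phosphatidylcholine, had log2 fold changes of 0.14 (SE 0.07, adjusted p = 0.170) and 0.10 (SE 0.07, adjusted p = 0.365). Choline kinase *Chka* (ENSMUSG00000024843, chr19:3851773-3894369, plus strand) was at 13.6, 13.8 and 14.7 cpm in the control libraries, 18.7, 16.9 and 19.9 cpm in the VLDLsep libraries and 16.3, 14.6 and 17.5 cpm in the CHYLsep libraries. It rose with a log2 fold change of 0.40 (SE 0.09, adjusted p = 0.00656) after VLDL-sized particles, where the groups did not overlap, compared with 0.20 (SE 0.09, adjusted p = 0.151) after CHYL-sized particles. The log2 difference between the particles for *Chka* was 0.20 with a 95% interval from -0.00201 to 0.40. *Etnk1*, an ethanolamine kinase (ENSMUSG00000030275, chr6:143167221-143232307, plus strand), was at 64.6, 62.7 and 57.7 cpm in the control libraries, 73.3, 75.8 and 68.9 cpm in the VLDLsep libraries and 72.9, 69.2 and 60.6 cpm in the CHYLsep libraries. Only its VLDLsep libraries lay wholly above control, with log2 fold changes of 0.24 (SE 0.08, adjusted p = 0.0316) and 0.13 (SE 0.08, adjusted p = 0.250).

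Cholinephosphotransferase *Chpt1* (ENSMUSG00000060002, chr10:88452745-88504073, minus strand) was at 13.9, 13.3 and 12.8 cpm in the control libraries, 16.2, 17.7 and 16.1 cpm in the VLDLsep libraries and 18.0, 16.2 and 13.4 cpm in the CHYLsep libraries, and the VLDLsep libraries did not overlap the controls. Its log2 fold change was 0.32 (SE 0.11, adjusted p = 0.0386) and 0.24 (SE 0.11, adjusted p = 0.132). *Cept1*, which makes both phosphatidylcholine and phosphatidylethanolamine (ENSMUSG00000040774, chr3:106502260-106547802, minus strand), was at 53.0, 56.9 and 56.7 cpm in the control libraries, 62.5, 67.9 and 62.5 cpm in the VLDLsep libraries and 65.1, 61.0 and 61.9 cpm in the CHYLsep libraries. Both treated groups lay above control, with log2 fold changes of 0.21 (SE 0.06, adjusted p = 0.0136) and 0.18 (SE 0.06, adjusted p = 0.0431). Of the *Cept1* exons, 24.7% overlap *Dennd2d* on the opposite strand, a gene with a mean of 234 counts. *Chkb*, the other choline kinase, did not pass, with log2 fold changes of -0.12 and -0.06, and 50.7% of its exons are shared on the same strand with *Gm44502*, a gene with a mean of 3.98 counts compared with 449 for *Chkb*. Scaled by library size alone, the count for these branches after VLDL-sized particles dropped to 1 higher and 1 lower, compared with 11.9% of all genes higher and 26.2% lower.

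Among the 7 lysophospholipid acyltransferases, 4 fell and none rose after VLDL-sized particles, and 3 fell and none rose after CHYL-sized particles, under each of the 3 normalizations based on TMM, upper quartile or DESeq2 size factors. Of all genes 17.9% fell after VLDL-sized and 13% after CHYL-sized particles. Scaled by library size alone, 4 fell and none rose in each comparison, compared with 26.2% and 19.9% of all genes lower. *Lpcat1*, which makes saturated phosphatidylcholine (ENSMUSG00000021608, chr13:73467197-73516422, plus strand), was at 31.0, 30.5 and 31.1 cpm in the control libraries, 18.2, 18.9 and 18.7 cpm in the VLDLsep libraries and 23.7, 22.5 and 20.5 cpm in the CHYLsep libraries. The 3 groups did not overlap, with the VLDLsep libraries lowest and the CHYLsep libraries between. It fell by 0.73 on the log2 scale after VLDL-sized particles (SE 0.07, adjusted p = 1.91e-05) and by 0.47 after CHYL-sized particles (SE 0.06, adjusted p = 4.51e-04). The difference between the particles was -0.26 with a 95% interval from -0.41 to -0.10 (unadjusted p = 0.00444, adjusted p = 0.529), and among the alternatives run it passed only when the 3 libraries numbered 3 were left out together (adjusted p = 0.0475), as did 2.07% of all genes (1.15% higher, 0.92% lower). *Lpcat4*, which also reacylates lysophospholipids (ENSMUSG00000027134, chr2:112239468-112247111, plus strand), was at 24.6, 21.5 and 20.6 cpm in the control libraries, 17.0, 15.6 and 12.7 cpm in the VLDLsep libraries and 14.9, 15.8 and 14.7 cpm in the CHYLsep libraries. All treated libraries were lower than all controls, with log2 fold changes of -0.56 (SE 0.11, adjusted p = 0.00221) and -0.55 (SE 0.11, adjusted p = 0.00373).

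*Lpcat3*, which inserts polyunsaturated chains and is a target of liver X receptors (ENSMUSG00000004270, chr6:124663027-124704418, plus strand), was at 119, 114 and 106 cpm in the control libraries, 91.0, 88.8 and 82.2 cpm in the VLDLsep libraries and 85.0, 90.7 and 84.4 cpm in the CHYLsep libraries. The treated and control libraries did not overlap, and the log2 fold change was -0.37 (SE 0.06, adjusted p = 8.75e-04) and -0.38 (SE 0.06, adjusted p = 0.00118). Of its exons 10.2% overlap *Emg1* on the opposite strand, a gene with a mean of 2133 counts. *Lpcat3* was the highest of the 7 per kilobase in control, at 49.5 cpm per kb. *Mboat1*, which prefers lysophosphatidylserine (ENSMUSG00000038732, chr13:30136489-30246717, plus strand), was at 30.7, 29.4 and 37.6 cpm in the control libraries, 22.5, 24.5 and 27.3 cpm in the VLDLsep libraries and 25.4, 25.9 and 30.3 cpm in the CHYLsep libraries. Replicate 3 was the highest in each group, the VLDLsep libraries lay below the controls and the CHYLsep libraries overlapped them, with log2 fold changes of -0.39 (SE 0.11, adjusted p = 0.0196) and -0.25 (SE 0.11, adjusted p = 0.118). *Lclat1* and *Mboat7*, which act on cardiolipin or phosphatidylinositol precursors, had log2 fold changes between -0.06 and 0.05 and did not pass. *Lpcat2*, linked to platelet-activating factor, was 54.7 cpm in control replicate 3 compared with 35.8 and 35.6 cpm in the other controls. Its log2 fold changes were -0.23 (SE 0.18, adjusted p = 0.364) and -0.10 (SE 0.18, adjusted p = 0.743), and with the replicate block it passed after VLDL-sized particles (adjusted p = 0.00538).

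In the CDP-diacylglycerol branch, the 2 CDP-diacylglycerol synthases moved in opposite directions. *Cds2* (ENSMUSG00000058793, chr2:132263148-132312050, plus strand) was at 82.3, 84.4 and 78.1 cpm in the control libraries, 191, 189.5 and 199.7 cpm in the VLDLsep libraries and 183, 169.6 and 194 cpm in the CHYLsep libraries, means of 81.6 ± 3.23, 193 ± 5.55 and 182 ± 12.2 (SD, n = 3). All treated libraries lay far above all controls. It rose by 1.24 (SE 0.06, adjusted p = 1.98e-07) on the log2 scale after VLDL-sized particles and by 1.16 (SE 0.06, adjusted p = 4.50e-07) after CHYL-sized particles. *Cds1* (ENSMUSG00000029330, chr5:101765130-101823858, plus strand) was at 11.6, 10.4 and 10.8 cpm in the control libraries, 7.62, 7.41 and 8.003 cpm in the VLDLsep libraries and 7.53, 7.33 and 8.70 cpm in the CHYLsep libraries. Every treated library lay below every control, and *Cds1* had log2 fold changes of -0.51 (SE 0.10, adjusted p = 0.00221) and -0.48 (SE 0.10, adjusted p = 0.00450). *Cds2* was the higher of the pair per kilobase in control, at 9.08 compared with 2.79 cpm per kb, and its share of the summed level went from 76.5 ± 1.37% in control to 91.7 ± 0.102% in VLDLsep and 91.0 ± 0.350% in CHYLsep.

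Cardiolipin synthase *Crls1* (ENSMUSG00000027357, chr2:132846666-132866785, plus strand) was at 37.5, 38.3 and 40.4 cpm in the control libraries, 47.6, 48.9 and 51.5 cpm in the VLDLsep libraries and 45.7, 43.4 and 49.9 cpm in the CHYLsep libraries. Neither treated group overlapped the controls, and it rose with log2 fold changes of 0.35 (SE 0.07, adjusted p = 0.00191) after VLDL-sized and 0.25 (SE 0.07, adjusted p = 0.0158) after CHYL-sized particles. The steps beside it did not pass. *Pgs1*, which makes phosphatidylglycerol phosphate, had log2 fold changes of -0.05 with a 95% interval from -0.15 to 0.04 and 0.00 with a 95% interval from -0.10 to 0.10. *Cdipt*, the phosphatidylinositol synthase, had log2 fold changes of 0.03 with a 95% interval from -0.07 to 0.12 and 0.07 with a 95% interval from -0.03 to 0.16. Per kilobase of merged exon *Cdipt* was the highest of the branch in control, at 52.1 cpm per kb. The phosphatidylserine genes differed little: the synthase *Ptdss1* rose with a log2 fold change of 0.16 (SE 0.05, adjusted p = 0.0285) after VLDL-sized particles, compared with 0.08 (SE 0.05, adjusted p = 0.285) after CHYL-sized particles, and *Ptdss2* and the decarboxylase *Pisd* had log2 fold changes between -0.01 and 0.09. Reads of *Pisd* could be split with *Pisd-ps1*, which had a mean of 210.3 counts, and *Pisd-ps2*, so its level is uncertain.

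Of the calls, 12 of 20 after VLDL-sized particles and 8 of 12 after CHYL-sized particles held under every alternative run. After VLDL-sized particles the call was lost for *Acsl5* without CTRL 2, CTRL 3, VLDLsep 1 or VLDLsep 2 (adjusted p from 0.0676 to 0.104), for *Gpam* without CTRL 1, CTRL 2, VLDLsep 2 or VLDLsep 3 (adjusted p from 0.0598 to 0.102) and for *Agpat4* without CTRL 1, CTRL 2 or VLDLsep 3 (adjusted p from 0.0729 to 0.0957). It was also lost for *Etnk1* without CTRL 2, CTRL 3, VLDLsep 1 or VLDLsep 2 (adjusted p from 0.0632 to 0.105), for *Cept1* without CTRL 1 or VLDLsep 2 (adjusted p from 0.0585 to 0.0647) and for *Mboat1* without CTRL 3, VLDLsep 1 or VLDLsep 2 (adjusted p from 0.0522 to 0.0788). *Ptdss1* lost it without CTRL 1, CTRL 3, VLDLsep 1 or VLDLsep 3 (adjusted p from 0.0547 to 0.122). *Chpt1* lost the call when any control or VLDLsep library, or CHYLsep 2, was left out (adjusted p from 0.0514 to 0.124). Calls after VLDL-sized particles also depended on the processing. Scaled by library size alone, *Etnk1*, *Chpt1*, *Cept1* and *Ptdss1* lost theirs, and with no filter on low counts *Gpam*, *Etnk1*, *Chpt1* and *Ptdss1* did. *Ptdss1* lost it as well with only the groups compared and without the libraries numbered 3. After CHYL-sized particles the call was lost for *Dgat2* without CHYLsep 2, CHYLsep 3 or CTRL 3 (adjusted p from 0.0546 to 0.0875), for *Crls1* without CHYLsep 3, CTRL 1 or CTRL 2 (adjusted p from 0.0547 to 0.0662), for *Agpat2* without CHYLsep 1, CHYLsep 2, CHYLsep 3, CTRL 1, CTRL 2 or VLDLsep 2 (adjusted p from 0.0561 to 0.152) and for *Cept1* without CHYLsep 1, CHYLsep 2, CHYLsep 3, CTRL 1, CTRL 2, CTRL 3 or VLDLsep 1 (adjusted p from 0.0544 to 0.162). Calls after CHYL-sized particles were also lost for *Cept1* with DESeq2, library size alone, no filter or only the groups compared, for *Agpat2* with no filter and for *Crls1* with library size alone. In the other direction, *Acsl1* and *Gpat4* passed in both comparisons and *Pcyt1a* after VLDL-sized particles without CTRL 3 (adjusted p = 0.00257 and 0.00908 for *Acsl1*, 0.0215 and 0.0408 for *Gpat4*, and 0.0210 for *Pcyt1a*). *Acsl1* also passed after VLDL-sized particles without CHYLsep 3 (adjusted p = 0.0424), and *Chpt1* after CHYL-sized particles without CHYLsep 3 (adjusted p = 0.0192). Without the 3 libraries numbered 3, 25 members passed after VLDL-sized particles (12 higher, 13 lower) and 17 after CHYL-sized particles (8 higher, 9 lower), compared with 43.4% of all genes (22% higher, 21.4% lower) and 33.8% (17.4% higher, 16.4% lower) of the 12386 genes then tested.

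Compared directly, no member had an adjusted p under 0.05 between VLDL-sized and CHYL-sized particles, and 0% of all genes did (limma-voom), while edgeR also gave 0 members. DESeq2 gave 0 members too, but it left some of them, *Gpat3* and *Lpcat1* included, without an adjusted p, so its 0 does not cover these. At an unadjusted p under 0.05 there were 2 members, *Gpat3* and *Lpcat1*, compared with 6.43% of all genes. The libraries of the particles did not overlap for 4 members (*Gpat3*, *Lpcat1*, *Ptdss1* and *Cdipt*), compared with 11.3% of all genes. The log2 differences lay between -0.26 and 0.55, and their 95% intervals between -0.54 and 0.98. For *Lpin1* the difference was 0.00 with a 95% interval from -0.30 to 0.30, for *Acsl3* -0.06 with a 95% interval from -0.21 to 0.09 and for *Cds2* 0.09 with a 95% interval from -0.04 to 0.22. A p that misses the threshold does not show that the particles act alike, and the genes that passed after 1 particle alone are not shown to differ between the particles.

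**Figure D4:**
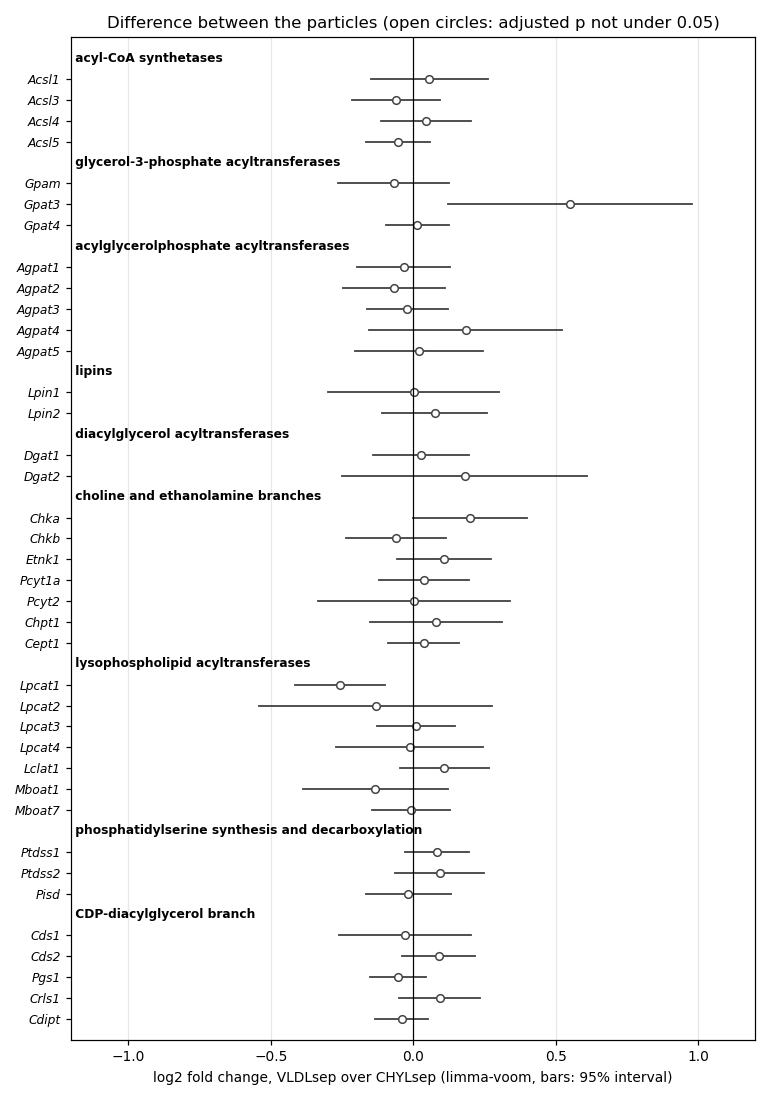
Log2 fold change of VLDLsep over CHYLsep for the 38 tested members by role (horizontal axis, log2), with circles for the fitted difference and bars for its 95% interval. All circles are open, and the intervals of *Gpat3* (0.12 to 0.98) and *Lpcat1* (-0.41 to -0.10) are those that exclude 0.

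Of 64 other genes of these pathways, 56 were tested. After VLDL-sized particles 16 passed (28.6%), 7 higher and 9 lower, and 10 passed after CHYL-sized particles (17.9%), 4 higher and 6 lower, compared with the 35.6% and 25.7% of all genes given above. Scaled by library size alone, 21 passed after VLDL-sized particles (5 higher, 16 lower) and 13 after CHYL-sized particles (3 higher, 10 lower). Of all genes 38.1% then passed after VLDL-sized (11.9% higher, 26.2% lower) and 28.3% after CHYL-sized particles (8.45% higher, 19.9% lower). *Pla2g7*, the platelet-activating factor acetylhydrolase, rose from 4.34 ± 0.753 cpm in control to 14.2 ± 0.701 cpm after VLDL-sized and 13.7 ± 1.10 cpm after CHYL-sized particles (SD, n = 3), log2 fold changes of 1.72 (SE 0.13, adjusted p = 6.38e-06) and 1.67 (SE 0.13, adjusted p = 1.28e-05). *Gpcpd1*, which breaks down glycerophosphocholine, rose from 36.1 ± 0.788 to 53.4 ± 5.38 and 50.5 ± 4.89 cpm (SD, n = 3), log2 fold changes of 0.56 (SE 0.09, adjusted p = 5.88e-04) and 0.48 (SE 0.09, adjusted p = 0.00252). The cytosolic phospholipase *Pla2g4a* had log2 fold changes of 0.27 (SE 0.07, adjusted p = 0.0103) and 0.25 (SE 0.07, adjusted p = 0.0238). The choline transporter *Slc44a1* fell from 45.7 ± 1.79 to 31.1 ± 3.93 and 32.3 ± 4.82 cpm (SD, n = 3), with log2 fold changes of -0.56 (SE 0.11, adjusted p = 0.00279) and -0.51 (SE 0.11, adjusted p = 0.00668). *Dgkz*, a diacylglycerol kinase, had log2 fold changes of -0.38 (SE 0.06, adjusted p = 8.88e-04) and -0.29 (SE 0.06, adjusted p = 0.00691), and *Gpd1l*, a glycerol-3-phosphate dehydrogenase homologue, -0.25 (SE 0.04, adjusted p = 0.00167) and -0.22 (SE 0.04, adjusted p = 0.00464). *Far1*, which supplies fatty alcohols for ether lipids, had log2 fold changes of -0.29 (SE 0.07, adjusted p = 0.00695) and -0.20 (SE 0.07, adjusted p = 0.0494), and the acyl-CoA-binding *Acbd3* 0.33 (SE 0.05, adjusted p = 3.37e-04) and 0.30 (SE 0.05, adjusted p = 0.00101).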

How the data were processed

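RNAseq was measured in 9 libraries, grouped by the sample labels. The authors deposited estimated counts by gene, for which the submitters' processing notes name Salmon 0.14.1 and GRCm38.p6. The methods describe counts scaled for transcript length and library size, but among deposited values above 10 whole numbers made up 58.3%, and the values were used as unscaled. Symbols were matched for 54346 of 54432 identifiers. Coordinates and lengths are from GENCODE M21 of GRCm38, not the authors' later release, and promoter sequences from RefSeq (GRCm38.p6). Lengths merge the exons of basic transcripts, and overlaps count all annotated exons. Overlapping and paralogous genes are uncertain where reads could be split, and whether the counting used strand is not given in the sources used here.

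Genes counted over 10 times in 3 or more libraries were normalized by TMM (edgeR 4.0.16), weighted with voom and fitted with limma 3.58.1 in R 4.3.3, with all 9 libraries in 1 model, no replicate block and Benjamini-Hochberg adjustment. These steps were tested on simulated data. Of 100 genes changed by 1 on the log2 scale, 98% were recovered for VLDLsep and 97% for CHYLsep against control. It called 204 and 208 genes, of which 6 and 11 were false calls. The simulation held no smaller changes and no replicate effect, so it does not cover these. Nor does it cover changes in genes counted as low as *Gpat3*, since the changed genes were drawn from better-counted ones. Far fewer genes were changed than passed in the data, so normalization was not tested at that extent of change. Alternatives were edgeR's quasi-likelihood test and DESeq2 1.42.0 on rounded counts, limma-trend with a prior count of 2, other normalizations and filters, a fit of the compared groups alone, a replicate block, and libraries left out. The members and lists were chosen with earlier results of these data known. A member has its value given in every library where it passed against control and was among the 20 largest absolute log2 fold changes. Other pathway genes are named where they passed in both comparisons and were among the 8 largest for VLDLsep.

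Deviations from the group means correlated across genes between same-numbered VLDLsep and control libraries (r of 0.138, 0.132 and 0.293 for replicates 1, 2 and 3), all over 0.1, so that the numbers were taken to pair these groups and blocked values are given where they change a call. However, the different-numbered control 1 and VLDLsep 2 correlated at 0.116, also over 0.1. That limit therefore does not separate the pairs by itself, and the pairing stays uncertain. Same-numbered CHYLsep and control libraries correlated at 0.124, 0.0684 and 0.338, a range that overlaps the one for VLDLsep. Only the limit of 0.1 set these comparisons apart, and replicate 3 had the highest same-numbered value in both. The methods name biological triplicates pooled within an experiment, and do not say what a replicate number shares. P-values measure the spread between these pools. 1 marker of another cell type is not reported here.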

Additional observations from a re-analysis of the deposited data

How the results depend on the processing

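Over the alternatives, the number of members with an adjusted p under 0.05 after VLDL-sized particles was 16 with no filter on low counts, 19 with library size only or with only the groups compared, 21 with DESeq2 and 26 (13 higher, 13 lower) with the replicate block, compared with 20. After CHYL-sized particles it was 10 with no filter, 11 with DESeq2 or with only the groups compared and 14 with library size only, compared with 12. With 1 library left out at a time it ranged from 14 to 21, for CHYL-sized particles from 9 to 12, between the particles from 0 to 0, and for the other pathway genes from 11 to 16 and from 8 to 12. Of all genes, 38.1% passed after VLDL-sized and 28.3% after CHYL-sized particles with library size only, and 47.9% after VLDL-sized particles with the replicate block. The share of all genes was not counted with no filter, with DESeq2, with only the groups compared or with 1 library left out. With the replicate block, 23 members (10 higher, 13 lower) and 18 other pathway genes passed after CHYL-sized particles (39.2% of all genes), compared with 12 and 10. The members that the block added after CHYL-sized particles were *Acsl1*, *Gpat4*, *Agpat4*, *Agpat5*, *Chka*, *Etnk1* and *Chpt1*, higher, and *Acsl4*, *Acsl5*, *Gpam* and *Mboat1*, lower. Pairing by number is not shown for that comparison, since same-numbered CHYLsep and control libraries correlated at 0.124, 0.0684 and 0.338, and CHYLsep 2 correlated more with control 1 (0.155) than with control 2. Nor is it shown between the particles, where same-numbered libraries correlated at 0.0286, 0.117 and 0.357 and 0 members passed with the block (1.16% of all genes). Without the 3 libraries numbered 3, 17 other pathway genes passed after CHYL-sized particles and 1 member, *Lpcat1*, passed between the particles. No member with an adjusted p under 0.05 turned its direction under an alternative. The cause of these shifts was not tested. *Gpat3* and *Dgat2* had the lowest counts among members with a call, and whether depth limits the others was not tested.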
